A study of Mus musculus with 18 samples.

Results

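The DNA replication and nucleotide synthesis genes described here are 42 genes whose products license origins, unwind and copy DNA, and make its building blocks. They were picked by name from the 25897 gene symbols of a table of nascent RNA in mouse embryonic stem cells. No cutoff on measured values was used, but earlier results of these data were known. Of the 42 genes, 39 were among the 14128 genes with enough counts to be tested. All cells were E14tg2a embryonic stem cells, of 129SV origin, in which the endogenous Med24 gene had been inactivated. Med24 encodes a subunit of Mediator, the complex that connects transcription factors with RNA polymerase II. Every group also carried a tetracycline-regulated FLAG-Med24 cDNA and the cassette cRAF-ErT2-T2A-RTTA, which encodes a RAF kinase fused to an estrogen receptor domain together with the transactivator that doxycycline switches on. Cells grown without doxycycline are labelled KO, and cells grown with 500 nM doxycycline, which express the cDNA, are labelled WT. Doxycycline itself and loss of Med24 cannot be told apart in this design, and the WT cells are a rescued line and not an unmodified one.

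Cells were cultured with serum, LIF and 2 µM of the GSK3 inhibitor Chir99021. For 24 h they then received 250 nM PD173074, an inhibitor of FGF receptors, in place of Chir99021. ERK signalling was started with 250 nM 4-hydroxytamoxifen (4OHT), the drug that activates the RAF fusion, and cells were taken at 2 and 8 h or without it (0 h, labelled DMSO). Ethynyl uridine at 5 mM was present for the last 15 min, so that the sequenced RNA was newly made. Each of the 6 groups (KO and WT at 0, 2 and 8 h) held 3 libraries, from clones A, B and C.

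Replication begins when the origin recognition complex, with CDC6 and CDT1, loads the ring of MCM2 to MCM7 onto DNA. CDC45 and the GINS complex turn that ring into an active helicase, polymerase alpha with primase starts each strand, and polymerases delta and epsilon extend it on the PCNA clamp that replication factor C loads. Many of these genes are known targets of E2F transcription factors, which the RB family restrains, and embryonic stem cells are known for a cell cycle spent mostly in S phase.

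RefSeq promoter windows were at hand for 34 of the 42 genes, covering 250 bases before to 50 bases after the start of transcription on GRCm38.p6. An E2F-type word (TTTCCCGC, TTTGGCGC or TTTCGCGC, on either strand) was found in the windows of 14 of these 34 genes (41.2%), against 2.12% of all 27025 genes with a window. The CCAAT word occurred in 22 of the 34 (64.7%), against 41.1% of all genes, and the ETS-type word CCGGAAG in 12 (35.3%), against 9.93%. The NRF1-type word GCGCATGC was found in 4 (11.8%), against 3.05%. The E2F-type words can overlap one another, as they do in Mcm5 and Mcm6. Such matches describe letters and not bound factors. Shown here are 4 promoters with E2F-type words, of genes that rose at 2 h and were higher in KO cells at 8 h. The promoter of Pola2 follows, a gene that took another course and has no such word in its window. These promoters were picked with the courses of their genes known. Pold1, which also fell at 2 h in both genotypes, has an E2F-type word in its window. Pcna, Mcm10 and Orc6, which rose at 2 h in both genotypes, have none. Each stretch runs 5′ to 3′ on the gene's strand from 170 bases before to 30 bases after the RefSeq start, and capitals mark E2F-type words.
Mcm3 (chr1:20820283-20820482, minus strand): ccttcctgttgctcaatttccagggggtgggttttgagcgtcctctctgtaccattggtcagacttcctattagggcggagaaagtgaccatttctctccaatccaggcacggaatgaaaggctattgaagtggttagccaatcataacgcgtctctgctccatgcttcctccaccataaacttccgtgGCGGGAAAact
Mcm5 (chr8:75109339-75109538, plus strand): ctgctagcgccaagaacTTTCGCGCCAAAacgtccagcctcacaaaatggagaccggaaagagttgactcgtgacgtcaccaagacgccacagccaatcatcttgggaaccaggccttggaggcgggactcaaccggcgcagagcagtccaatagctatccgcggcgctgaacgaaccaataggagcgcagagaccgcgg
Mcm6 (chr1:128359676-128359875, minus strand): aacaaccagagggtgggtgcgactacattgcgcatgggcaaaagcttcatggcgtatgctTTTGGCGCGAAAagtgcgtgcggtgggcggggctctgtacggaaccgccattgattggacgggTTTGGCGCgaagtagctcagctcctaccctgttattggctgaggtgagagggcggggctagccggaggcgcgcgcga
Pole2 (chr12:69228161-69228360, minus strand): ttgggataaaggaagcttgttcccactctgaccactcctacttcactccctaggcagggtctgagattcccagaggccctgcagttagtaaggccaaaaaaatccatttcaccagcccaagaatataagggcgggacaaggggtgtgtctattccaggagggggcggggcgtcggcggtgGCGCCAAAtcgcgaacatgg
Pola2 (chr19:5964177-5964376, minus strand): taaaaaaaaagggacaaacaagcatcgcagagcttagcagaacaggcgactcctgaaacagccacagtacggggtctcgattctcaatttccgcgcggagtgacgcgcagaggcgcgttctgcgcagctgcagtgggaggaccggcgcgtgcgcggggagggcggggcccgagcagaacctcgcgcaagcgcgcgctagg

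Library totals ranged from 6691177 to 14541145 counts, and 3 counts, the most that a count of 0 allows, corresponded to 0.196 to 0.629 CPM, the counts scaled to a common library size. All CPM given here are edgeR's, after TMM scaling. Med24 averaged 38.9, 46.5 and 39.3 CPM at 0, 2 and 8 h in KO cells, against 548, 1630 and 404 CPM in WT cells. A set of 13 abundant genes held 34.2% to 43.9% of the counts in 3 KO libraries (clone A at 2 h, clones B and C at 8 h) and 17.7% to 24% in the other 15. Some results that rest on those 3 libraries are therefore also given without them, mainly the 8 h differences between genotypes. This leaves clone A as the lone KO library at 8 h. Most other KO results at 2 h and 8 h are given with all libraries only. Summed over 8 markers, embryonic stem cell genes ranged from 1610 to 2590 CPM over all libraries. Single genes of this set took opposite courses. From 0 h to 8 h in WT cells, Nanog went from 326 to 337 CPM down to 19.6 to 19.9 CPM. Pou5f1 went from 169 to 180 CPM up to 278 to 286 CPM. Esrrb also fell and Utf1 also rose. The 8 fibroblast markers summed to 2.75 to 10.1 CPM, and 1 of them, Lum, was at 0. Marker sets of other early lineages also moved with genotype and time. The 8 primitive endoderm markers summed to 229 to 255, 145 to 202 and 136 to 189 CPM at 0, 2 and 8 h in KO cells, against 121 to 130, 53.7 to 62.6 and 74.1 to 78.5 CPM in WT cells. The 8 trophectoderm markers summed to 207 to 212, 173 to 183 and 492 to 580 CPM in KO cells, against 171 to 185, 442 to 459 and 662 to 717 CPM in WT cells. Most of this sum in WT cells at 2 h and 8 h was Tead4, at 300 to 315 and 474 to 506 CPM. Krt8 and Krt18 also rose at 2 h in WT cells, while Tfap2c was at 75.2 to 86.3 CPM at 0 h and 27.7 to 31 CPM at 2 h. Cdx2 reached at most 7.77 CPM and Elf5 0.763 CPM. Col4a1 made up most of the primitive endoderm sums, at 88.7 to 98.6 CPM in WT and 173 to 186 CPM in KO cells at 0 h. None of the 16 primitive endoderm and trophectoderm markers was at 0 in all libraries, and their part in the results was not tested. In bulk samples such as these, fewer cells of a type and less RNA per cell cannot be told apart.

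Of the 42 genes, 3 had no count in any of the 18 libraries. They were Cdt1, whose product loads the helicase ring, Gins2, a GINS subunit, and Tk1, the thymidine kinase of the salvage pathway. In GENCODE M21 each lies wholly within the span of another gene of the table: Cdt1 (chr8:122568015-122573554) and Gins2 (chr8:120578633-120589304) within Gm20388, and Tk1 (chr11:117815526-117826092) within Gm20708. Across the table, 894 of 900 protein-coding genes that lie wholly within other genes were at 0 (99.3%), against 10.2% of the 20795 others. Of the enclosed genes with exon bases that no other gene of the table shares, 838 of 842 were at 0 (99.5%). Within these, the same held for 477 of the 480 enclosed only by genes of the opposite strand (99.4%). A 0 for these 3 genes is thus no measure of expression. For the 39 tested genes, levels per length use the part of the gene's span that no other gene of the table covers.

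On that scale, averaged over all libraries, Pcna, the sliding clamp, stood highest at 38.5 CPM per kb. The order is not the same in every group: in WT cells at 8 h Mcm7 averaged 31.3 and Pcna 30.6 CPM per kb. Next over all libraries came Mcm7, a ring subunit, at 28.7 and Rrm2, the regulated subunit of ribonucleotide reductase, at 24.9 CPM per kb. Mcm2, Rfc5, Mcm5, Orc6 and Mcm3 followed within a narrow band of 16.7 to 15.1 CPM per kb, in which no order is drawn. The lowest were Pola1, the catalytic subunit of polymerase alpha, at 0.62 and Prim2, the large primase subunit, at 0.441 CPM per kb, in the longest spans of the set (327.39 and 212.91 kb). On this scale levels spread widely within single complexes, as between Mcm7 and Mcm6 (28.7 and 6.44 CPM per kb) in the ring. Before division by length Mcm7 and Mcm6 averaged 211 and 181 CPM, over spans of 7.36 and 28.08 kb. Their exonic lengths are 4.426 and 4.666 kb. Whether introns were counted is not stated in the sources used here, so scaling by span is an assumption, and the order rests on it.

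The first comparisons asked how the genes changed after 4OHT in each genotype. Every group carried the RAF fusion, so 4OHT itself and ERK signalling cannot be told apart in this design. After TMM scaling the sum over the genes was higher at 2 h and lower at 8 h than at 0 h, in modest steps. The 2 h step depends on the scaling. Summed over the 39 genes, nascent RNA averaged 4483 ± 66, 4979 ± 91 and 4182 ± 150 CPM at 0, 2 and 8 h in KO cells, and 4346 ± 110, 4838 ± 74 and 3861 ± 27 CPM in WT cells (SD, n = 3 each). The 2 h sums lay above the 0 h and 8 h sums of the same genotype in every library. As a share of all counts, without TMM, the 39 genes held 0.492% to 0.517%, 0.412% to 0.493% and 0.308% to 0.432% at 0, 2 and 8 h in KO cells, and 0.451% to 0.493%, 0.463% to 0.485% and 0.401% to 0.409% in WT cells. On this scale the 2 h libraries did not lie above the 0 h libraries in either genotype.

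**Figure D1:**
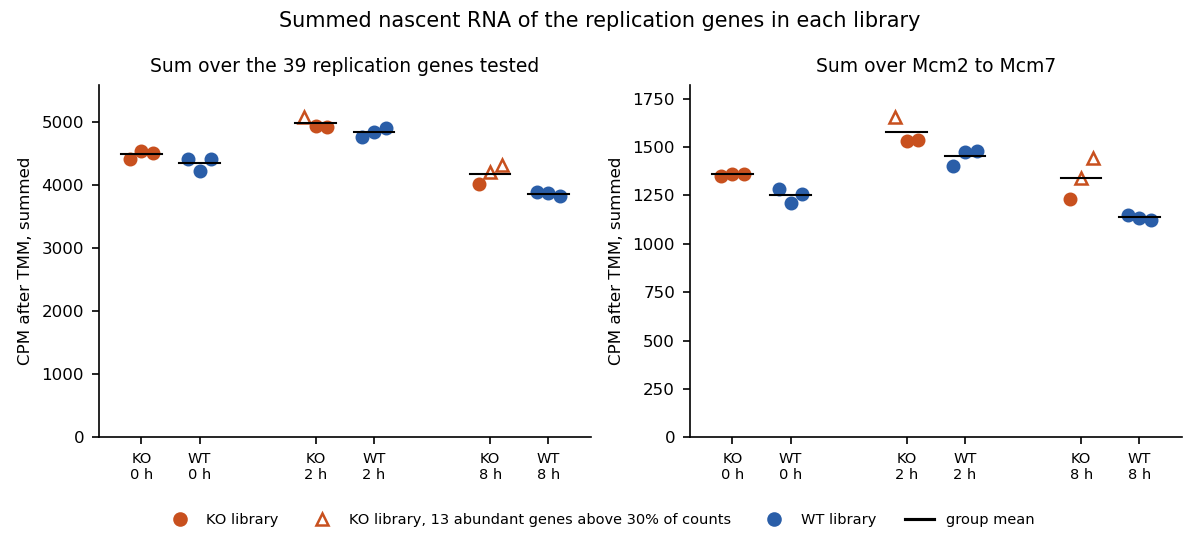
Summed CPM after TMM scaling (y axis) in each library, for the 39 tested genes (left) and for Mcm2 to Mcm7 (right), by genotype and hours of 4OHT (x axis), with the group mean as a line. On this TMM scale the 2 h libraries stood highest in both genotypes, which their shares of all counts did not, and the KO libraries at 8 h, which spread from 4021.9 to 4322.9 CPM over the 39 genes, lay above the WT libraries at 3830.6 to 3883.6 CPM.

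At 2 h against 0 h, 19 of 39 genes were higher and 5 lower in KO cells, and 17 were higher and 5 lower in WT cells, by edgeR's quasi-likelihood test at a Benjamini-Hochberg adjusted p under 0.05. Over all genes tested, 31.5% were higher and 35.2% lower in KO cells, and 32.4% higher and 33.8% lower in WT cells. The median log2 fold change of the 39 was 0.09 in both genotypes (0.094 in KO and 0.09 in WT cells), against -0.05 and -0.02 over all genes. The direction of this step depends on scaling. With library size alone after leaving out the 13 abundant genes, the median of all genes moved to -0.26 in KO and -0.21 in WT cells, and 8 members were higher and 16 lower in KO cells, 7 and 16 in WT cells. With library size over all genes, 0 were higher and 13 lower in KO cells, and 4 and 5 in WT cells. A change of scaling moves all genes alike, so the gap between the median of the 39 and that of all genes, 0.14 in KO and 0.11 in WT cells, is fixed by construction.

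Orc6, a small subunit of the origin recognition complex, had 175, 159 and 161 CPM at 2 h, against 110, 118 and 107 at 0 h, in KO clones A, B and C. In WT clones it had 169, 174 and 164 CPM at 2 h, against 108, 106 and 115 at 0 h. These are rises of 1.47-fold (log2 0.56 ± 0.05) and 1.54-fold (log2 0.62 ± 0.05), with no overlap between times. Pcna had 202, 198 and 204 CPM at 2 h, against 139, 146 and 155 at 0 h, in KO cells. In WT cells it had 195, 211 and 205 CPM at 2 h, against 128, 129 and 135 at 0 h. The clamp gene thus rose in every clone, by 1.37-fold in KO and 1.56-fold in WT cells. Gins4, a GINS subunit, rose 1.41-fold in KO and 1.2-fold in WT cells.

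Others that rose at 2 h in both genotypes were Mcm3, Mcm4, Mcm5 and Mcm6 of the ring, Cdc6, Cdc45, Mcm10, a scaffold that helps the ring to open DNA, Pole2, a polymerase epsilon subunit, Rpa2, a subunit of the single-strand binding protein RPA, and Rfc5, a clamp loader subunit. For Mcm6 the WT rise of 0.13 (log2) was not called with a replicate block (adjusted p = 0.0526, edgeR) or without any 1 of the 6 WT libraries compared. With Orc6, Pcna and Gins4 they make 13 genes, which is 68.4% of those higher in KO and 76.5% of those higher in WT cells. Pola2, Pold1, Rpa1 and Rpa3 were lower in both. The genes called in 1 genotype alone were not shown to differ between genotypes, since the test of the difference called 0 members in either direction (background 6.6% and 6.6%). In that test 9 had an unadjusted p under 0.05, and DESeq2 also called 0.

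By 8 h many members stood below their 0 h level. In KO cells 19 were lower and 4 higher, and in WT cells 27 were lower and 2 higher. Over all genes tested 29.6% were lower and 28.2% higher in KO cells, and 31.3% lower and 30.7% higher in WT cells. The median of the 39 was -0.17 in KO and -0.27 in WT cells (log2), against -0.02 and -0.01 over all genes. Of the 4 higher in KO cells, 2 remained without KO clone A at 0 h or KO clone B at 8 h. Leaving out the 13 abundant genes from the library size lowered the median of all genes to -0.15 and -0.14 and gave 27 lower and 1 higher in KO cells, 33 and 2 in WT cells. All 19 genes lower in KO cells were also lower in WT cells, where they made up 70.4% of the genes lower.

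The 3 tested members that supply deoxynucleotides, Rrm1, Rrm2 and Tyms, were lower at 8 h in both genotypes. Rrm2 had 100, 114 and 124 CPM at 8 h, against 163, 164 and 164 at 0 h, in KO cells. In WT cells it had 121, 121 and 111 CPM at 8 h, against 159, 171 and 167 at 0 h. The groups did not overlap in either genotype, and the falls were 1.47-fold and 1.41-fold. Rrm1, the large reductase subunit, and Tyms, the synthase that makes thymidylate, fell by 0.25 and 0.33 on the log2 scale in KO cells and by 0.33 and 0.40 in WT cells. At 2 h Rrm1 and Rrm2 differed from 0 h by at most 0.09 (log2) and were called in neither genotype, while Tyms was higher in KO cells by 0.19 and not called in WT cells (0.07).

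Pole2 fell between 2 h and 8 h. It had 50.5, 50.9 and 45.9 CPM at 8 h, against 82.9, 81.4 and 73.1 at 2 h, in KO cells, a 1.6-fold fall. In WT cells it had 41, 41.1 and 41.2 CPM at 8 h, against 76.8, 80.4 and 77.6 at 2 h, a 1.9-fold fall. Cdc45, the helicase cofactor, moved alike: it had 57.1, 58.4 and 53.9 CPM at 8 h, against 88.7, 93.6 and 95.6 at 2 h, in KO cells. In WT cells it had 56.1, 48.3 and 54 CPM at 8 h, against 94.4, 96.1 and 100 at 2 h. No 8 h library reached a 2 h library for either gene. In this step from 2 h to 8 h, 26 members were lower and 3 higher in KO cells, and 27 lower and 4 higher in WT cells. The background was 27.7% lower and 29.4% higher in KO cells, and 30.2% lower and 30.7% higher in WT cells. Here 25 members were lower in both genotypes, which is 96.2% of those lower in KO and 92.6% of those lower in WT cells.

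By role, the 5 helicase activation genes were lower at 8 h than at 2 h in both genotypes, with a median of -0.51 in KO and -0.54 in WT cells (log2). The 3 nucleotide genes were lower in both, with medians of -0.50 and -0.48. Fen1, the flap nuclease, and Lig1, the ligase, which finish Okazaki fragments, were lower in both as well. Lig1 fell by 0.36 and 0.38, and Fen1 by 0.21 and 0.39, in KO and WT cells. The clamp loader was mixed: of the 6 clamp and loader genes, Pcna and Rfc3 were lower in both genotypes, and Rfc1, Rfc2 and Rfc4 were called in neither.

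**Figure D2:**
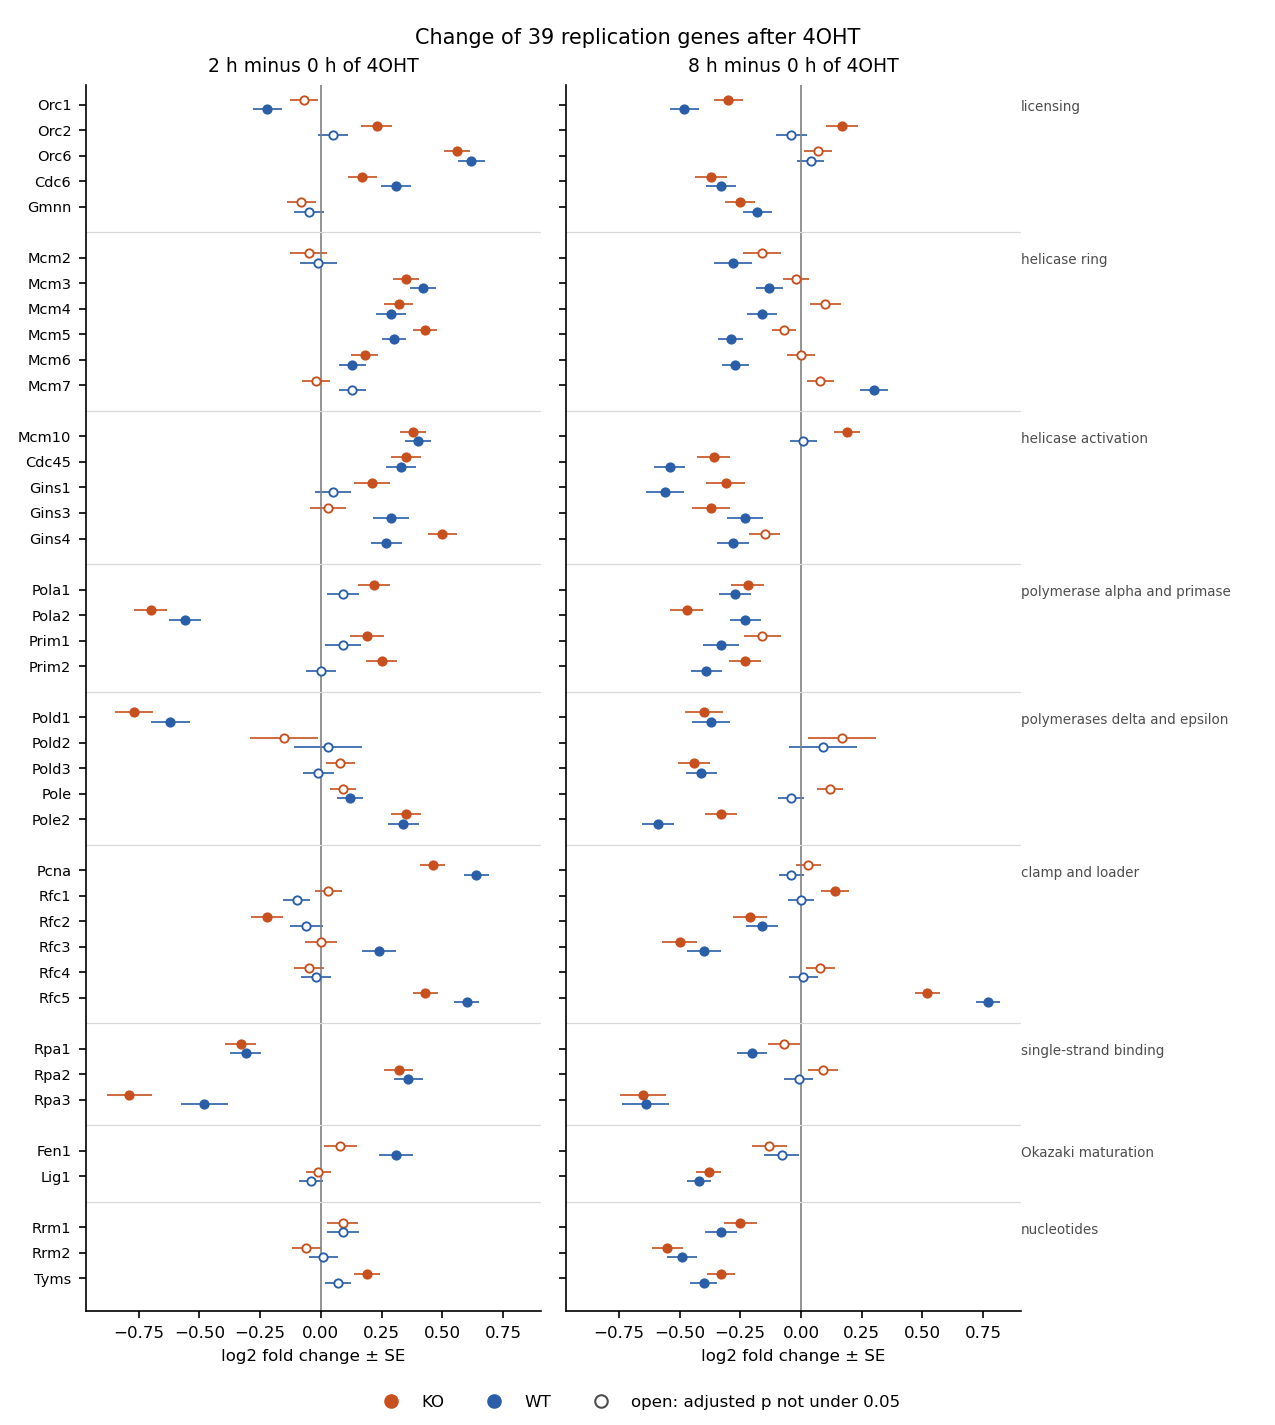
Log2 fold change ± SE (x axis) of each of the 39 tested genes (rows, grouped by role) at 2 h and at 8 h against 0 h, in KO and WT cells, with filled points for an adjusted p under 0.05. Points lie mostly right of 0 at 2 h and left of 0 at 8 h. After TMM scaling the ring genes Mcm2 to Mcm6 were lower at 8 h in WT cells and not called in KO cells. For Mcm2 and Mcm3 the test of the 8 h response between genotypes made no call, so a difference is not shown. With the abundant genes left out of the library size, Mcm2, Mcm3, Mcm5 and Mcm6 were also called lower in KO cells. In WT cells Mcm3 lost its call with DESeq2 and without clone A, B or C at 8 h.

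A few members took another course. Rfc5 had 185, 172 and 184 CPM at 8 h, against 123, 125 and 129 at 0 h, in KO cells, and 223, 220 and 212 CPM, against 129, 125 and 130, in WT cells. It was 1.43-fold higher in KO and 1.71-fold higher in WT cells at 8 h, while its fellow loader gene Rfc3 was 1.41-fold and 1.32-fold lower. Rfc5 (chr5:117378103-117389047, minus strand) and Wsb2 (chr5:117357304-117378601, plus strand), which encodes a WD-repeat protein, converge and share 499 bases at their 3′ ends. Wsb2 was 1.58 and 1.93 higher (log2) at 8 h in KO and WT cells. The strand setting of the counting is not stated in the sources used here. Of the 480 coding genes with unshared exon bases that were enclosed only by genes of the opposite strand, 477 were at 0. The part of Wsb2 in the Rfc5 values was not tested.

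Pola2, the accessory subunit of polymerase alpha, had 56.2, 54.6 and 56.4 CPM at 2 h, against 86.6, 88.8 and 95.4 at 0 h, in KO cells. In WT cells it had 65.1, 65.1 and 64 CPM at 2 h, against 103, 89.1 and 93.8 at 0 h. It thus fell 1.62-fold and 1.47-fold while Pola1 rose 1.17-fold in KO cells and was not called in WT cells. Pold1, the catalytic subunit of polymerase delta, had 47.3, 39.8 and 44.4 CPM at 2 h, against 76.7, 73.4 and 73.1 at 0 h, in KO cells. In WT cells it had 40.7, 42.9 and 43.6 CPM at 2 h, against 65.6, 67.5 and 62.2 at 0 h. The falls were 1.7-fold and 1.53-fold, with no overlap between times. Rpa3, the smallest RPA subunit, fell 1.73-fold and 1.4-fold at 2 h and was still 1.57-fold and 1.56-fold lower at 8 h. Between 2 h and 8 h, Pola2 and Pold1 rose again in both genotypes, by 0.22 and 0.37 (log2) in KO cells and by 0.33 and 0.25 in WT cells. Without the 3 libraries rich in the abundant genes, the KO rises of Pola2 and Pold1 were 0.16 and 0.19 and no longer passed (adjusted p = 0.186 and 0.117, edgeR).

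**Figure D3:**
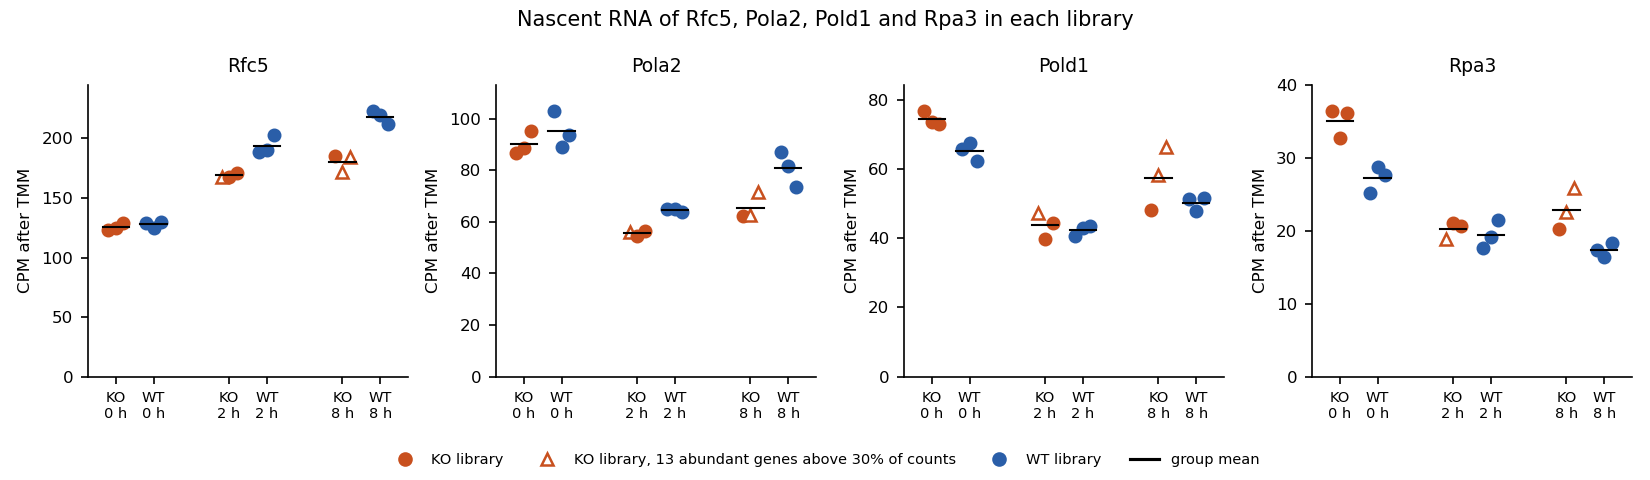
CPM after TMM scaling (y axis) of Rfc5, Pola2, Pold1 and Rpa3 in each library, by genotype and hours of 4OHT (x axis), with the group mean as a line. Rfc5 was higher at 2 h and 8 h than at 0 h in both genotypes, while Pola2, Pold1 and Rpa3 were lowest or near their lowest at 2 h.

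The next comparisons set KO against WT cells at each time. At 0 h, 5 members were higher and 1 lower in KO cells (background 6.81% higher and 9.64% lower), and the median difference of the 39 was 0.03 (log2), against 0.01 over all genes. Rpa3 had 36.4, 32.7 and 36.2 CPM in KO clones, against 25.2, 28.7 and 27.7 CPM in WT clones, and was 1.29-fold higher. Rfc3 had 57.7, 55.3 and 58.5 CPM in KO clones, against 49.7, 45.9 and 46.8 CPM in WT clones, and was 1.2-fold higher. Mcm7, Mcm3 and Pcna were higher by 0.18, 0.16 and 0.17 (log2), each with every KO clone above every WT clone. Prim2 was the 1 lower gene: it had 86.4, 92.8 and 92.9 CPM in KO clones, against 102, 110 and 99.4 CPM in WT clones. Single libraries decided several of these calls: 2 were higher without clone B of either genotype, 3 without clone C of either genotype or WT clone A, and 4 without KO clone A, where Rfc2 was gained. Prim2 lost its call in each of these fits but the one without WT clone C, while Rpa3 and Rfc3 kept theirs in all 6.

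At 2 h only 2 members were higher and 2 lower in KO cells (background 10.8% and 12.9%). Gins4 had 110, 111 and 117 CPM in KO clones, against 87, 93 and 88 CPM in WT clones, and was 1.27-fold higher. Mcm5 was 1.11-fold higher. Pola2 had 56.2, 54.6 and 56.4 CPM in KO clones, against 65.1, 65.1 and 64 CPM in WT clones, and was 1.16-fold lower, as was Rfc5 by 1.15-fold. DESeq2 made the same calls but for Pola2. Mcm5 was no longer called without KO clone A or B or without any 1 WT clone, and Pola2 without KO clone B or WT clone A or B.

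At 8 h, 13 members were higher and 2 lower in KO cells (background 14.5% and 17.1%), and the median difference was 0.12 (log2), against 0.00 over all genes. Of the 6 ring genes, Mcm2, Mcm3, Mcm4, Mcm5 and Mcm6 were higher, by 1.18-fold to 1.26-fold, and Mcm7 was not called (log2 difference -0.05 ± 0.06). Mcm6 had 172, 181 and 199 CPM in KO clones A, B and C, against 140, 148 and 148 CPM in WT clones. Mcm4 had 128, 144 and 158 CPM in KO clones, against 117, 113 and 113 CPM in WT clones. Neither gene's groups overlapped, and the KO clones spread more widely than the WT clones. The other genes higher were Mcm10, Gins1, Gins4, Prim1, the catalytic primase subunit, Pole2, Pcna, Rpa3 and Rrm1. Rfc5 and Pola2 were lower, by 1.21-fold and 1.25-fold.

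The 8 h difference moved with the share of the abundant genes among KO clones. Summed over Mcm2 to Mcm7, KO clones A, B and C had 1233.1, 1342.3 and 1442.2 CPM at shares of 18.2%, 36.4% and 43.9%, against 1149.1, 1134.9 and 1125.3 CPM in WT clones at shares of 17.7% to 18.6%. Clone A, whose share was like that of the WT libraries, lay above all WT libraries in this sum. It lay above all of them for 22 of the 39 members and below all of them for 6. Among the 13 genes called higher, which were called with clone A included, it lay above for all but Mcm2 and Rrm1. CPM increased in the order of share, A, B, C, for 7 of those 13 genes and for 17 of all 39 members. Neither this order nor the position of clone A was counted over all genes tested. Whether these counts are particular to the members is therefore not shown. Without the 3 libraries of high share, 5 members were higher and 3 lower. Of the 15 genes called, 7 remained (Mcm5, Mcm6, Gins1, Pole2 and Pcna higher, Pola2 and Rfc5 lower), and Rrm2 was gained as lower. The log2 difference of Mcm2 was then 0.04 (adjusted p = 0.726, edgeR). With library size alone over all genes, which follows that share, 0 were higher and 4 lower.

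**Figure D4:**
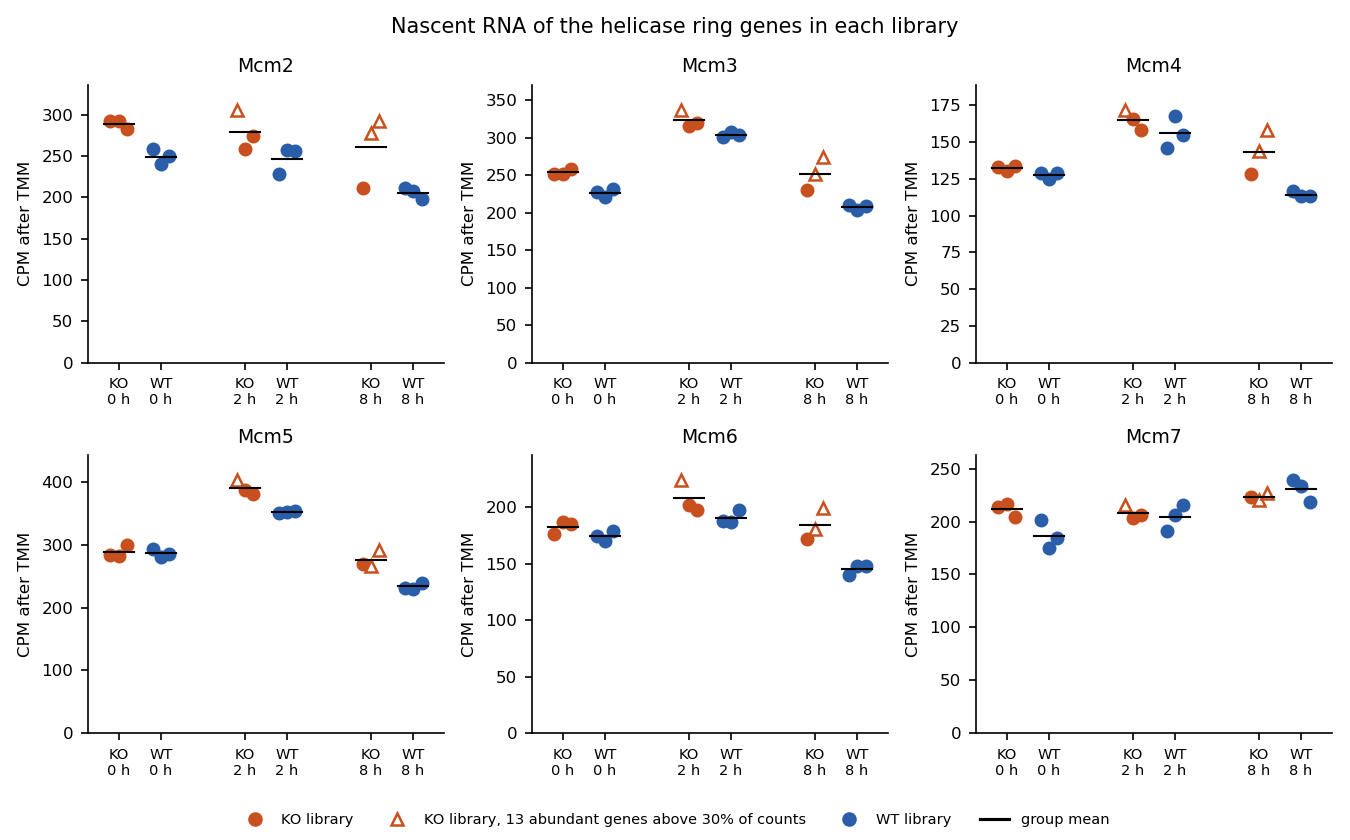
CPM after TMM scaling (y axis) of the 6 helicase ring genes in each library, by genotype and hours of 4OHT (x axis), with open triangles for the 3 KO libraries in which 13 abundant genes held over 30% of counts. At 8 h the KO libraries of Mcm3 to Mcm6 lay above all WT libraries, clone A of Mcm2 lay at the top of the WT range, and Mcm7 overlapped.

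Whether the 8 h response differed between genotypes was tested as an interaction. Mcm4, Mcm5 and Mcm6 responded more positively in KO cells, by 0.26 ± 0.09, 0.22 ± 0.07 and 0.27 ± 0.08 (log2), and Rfc5 less so, by -0.25 ± 0.07 (adjusted p 0.0142 to 0.0368, edgeR). These 3 higher and 1 lower compare with a background of 7.88% and 8.88%. Mcm6 differed from 0 h by 0.00 in KO cells and by -0.27 in WT cells, Mcm5 by -0.07 and -0.29, and Mcm4 by 0.10 and -0.16. Mcm7 went the other way in WT cells, where it was 1.23-fold higher at 8 h with 239, 234 and 218 CPM, against 201, 175 and 184 CPM at 0 h. Its interaction of -0.23 lay at an adjusted p of 0.05 and was not called. Without the 3 libraries of high share the values were 0.11 for Mcm4, 0.20 for Mcm5, 0.19 for Mcm6 and -0.21 for Rfc5, and none was called (adjusted p 0.0618 to 0.411). That fit has 1 KO library at 8 h, which is assumed to vary like the other groups, and the values of Mcm5 and Rfc5 stayed close to those with all libraries. Orc2, Gins1 and Pola2 were called in their place. Leaving out single libraries gave 0 to 4 higher and 0 to 3 lower. Without KO clone C at 8 h, Mcm4, Mcm5 and Mcm6 all lost their calls, and Orc2 and Pole2 were called higher in their place. There were 0 higher without KO clone A at 0 h and 1 without WT clone A at 8 h. There were 0 lower without KO clone C at 0 h, KO clone B at 8 h or WT clone A at 8 h, and 3 without WT clone A at 0 h, KO clone C at 8 h or WT clone C at 8 h. For Wsb2, the gene that meets Rfc5 tail to tail, the interaction was -0.35 ± 0.08.

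**Figure D5:**
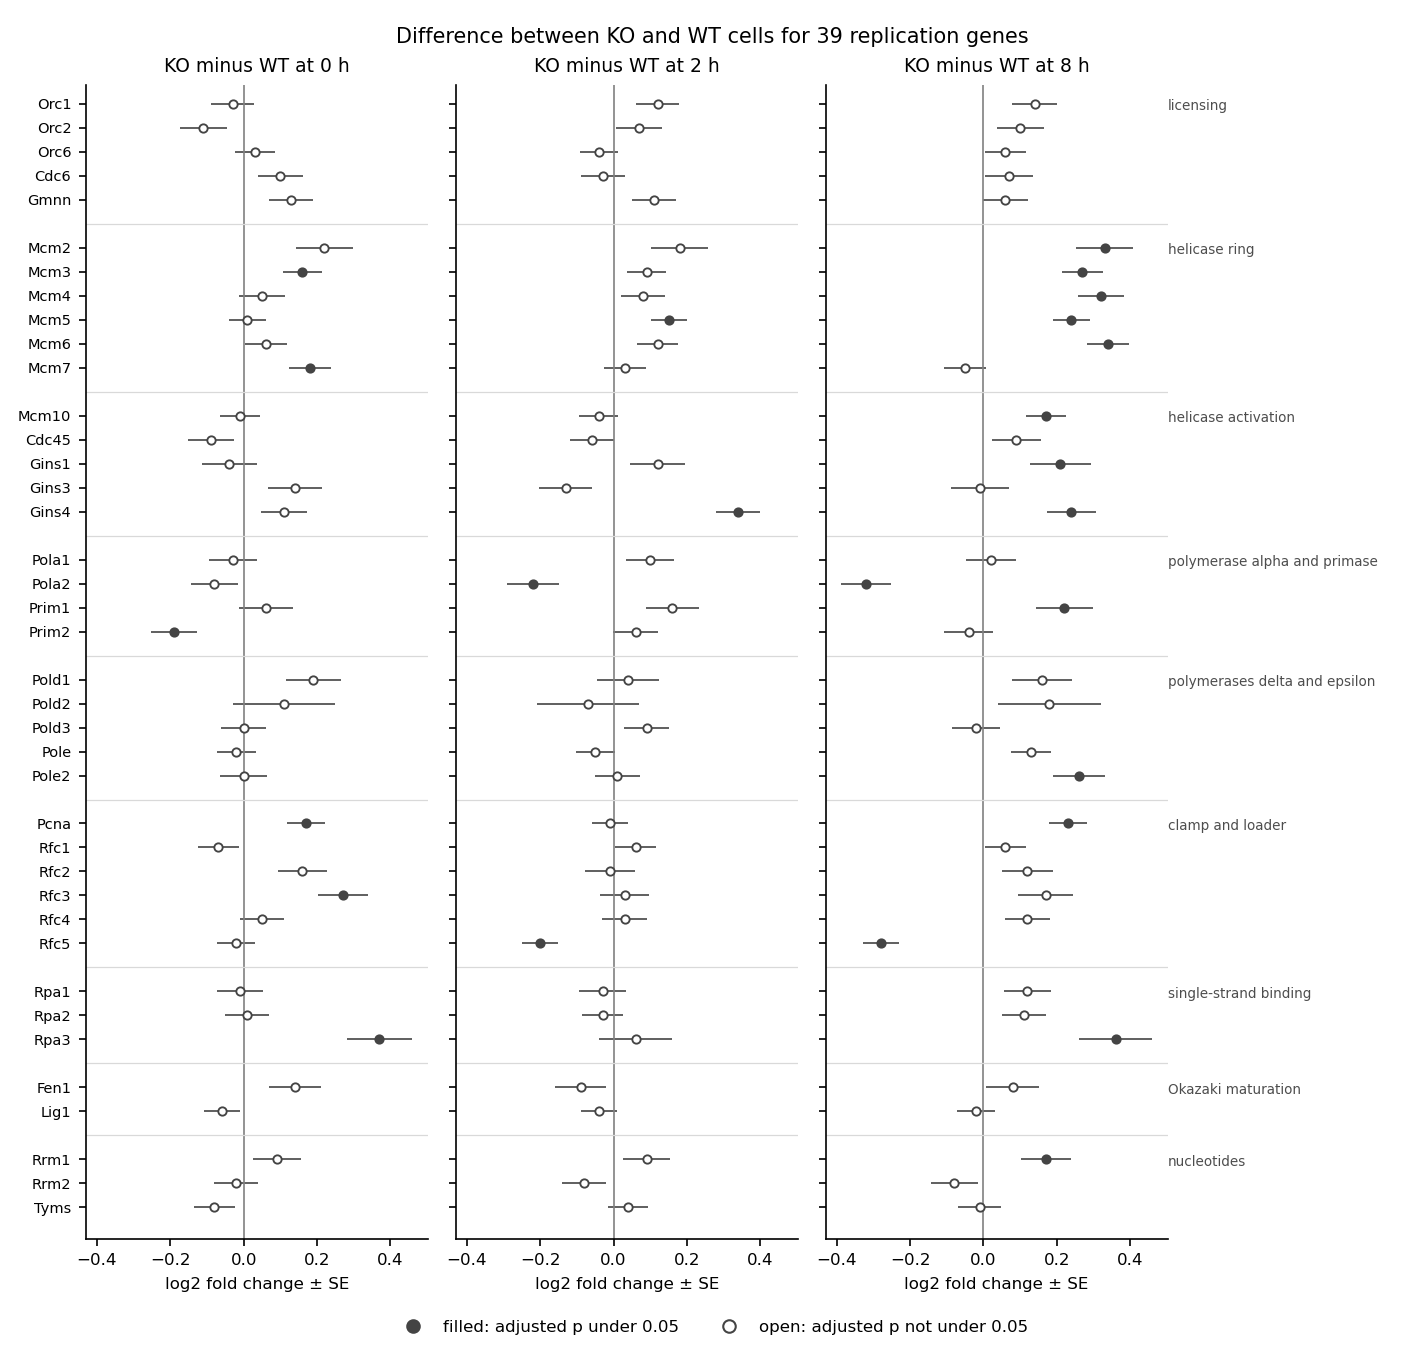
Log2 difference ± SE (x axis) between KO and WT cells at 0, 2 and 8 h for each of the 39 tested genes (rows, grouped by role), with filled points for an adjusted p under 0.05. At 8 h Mcm2 to Mcm6 stood at 0.24 to 0.34, while Pola2 and Rfc5 stood at -0.32 and -0.28.

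Gene span and the genotype difference were related at 0 h. Over the 39 members Spearman's rho between span and the KO minus WT log2 difference was -0.66, and over 13980 genes it was -0.32. The 13 shortest members had a median difference of 0.13 and the 13 longest of -0.03. At 2 h rho was 0.22 and at 8 h -0.12 over the members. With the difference between genotypes in the response, which also rests on the 0 h libraries, rho was 0.68 at 2 h and 0.48 at 8 h over the members, and 0.30 and 0.26 over all genes. These are descriptions across genes that share the same libraries, and genes are not independent replicates.

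Members with and without E2F-type promoter words were also set side by side, as a description. Of the 13 tested genes with such a word, 12 were lower and 1 higher at 8 h in WT cells, with a median of -0.33 (log2), and 9 were lower and 0 higher in KO cells, also with a median of -0.33. Of the 19 tested genes whose window had none, 9 were lower and 1 higher in WT cells (median -0.08), and 6 were lower and 4 higher in KO cells (median -0.07). At 2 h the medians of the genes with and without the word were 0.08 and 0.09 in KO cells and 0.13 and 0.07 in WT cells. For KO against WT cells at 8 h they were 0.14 and 0.11. Splits by the other words differed too: at 8 h in KO cells the median was -0.07 in 22 genes with the CCAAT word and -0.35 in 10 without it, and -0.26 in 12 with the ETS-type word and -0.10 in 20 without it. In WT cells these medians were -0.25 and -0.35 for CCAAT, and -0.30 and -0.25 for the ETS-type word. None of these splits was tested.

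Other genes of the same pathways, from 7 lists, put these values in context. Over all genes, at 2 h against 0 h 31.5% were higher and 35.2% lower in KO cells, and 32.4% and 33.8% in WT cells. At 8 h against 0 h it was 28.2% and 29.6% in KO cells and 30.7% and 31.3% in WT cells, and at 8 h against 2 h 29.4% and 27.7% in KO cells and 30.7% and 30.2% in WT cells. Counts at 2 h depend on the scaling, as they do for the members. Differences between KO and WT cells at 8 h in these lists are given with all libraries only. Those of the members moved without the 3 libraries of high share. Of 13 E2F and RB family genes, 4 were higher and 8 lower at 8 h in KO cells, and 3 higher and 7 lower in WT cells (list medians -0.34 and -0.25, log2). E2f2 was higher by 1.09 and 1.35 (log2), and E2f4, which acts mainly as a repressor, by 0.79 and 1.05, in KO and WT cells. E2f8, a repressor of E2F targets, fell by 1.07 in KO cells, and its 8 h response differed between genotypes by -0.73. Tfdp2 changed by -0.58 in KO and by -1.07 in WT cells. Rb1 fell by 0.83 in WT cells. In KO cells Rb1 averaged 20.9 CPM at 8 h against 32.1 CPM at 0 h. E2f8 was also lower in KO than in WT cells at 8 h, by -0.89. Of 13 further licensing and firing factors, 7 were higher and 3 lower at 2 h in KO cells, and 6 and 3 in WT cells (medians 0.21 and 0.00). Ticrr, which helps origins to fire, was 0.41 and 0.28 higher in KO cells at 2 h and 8 h.

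Of 17 tested fork and lagging strand factors, 10 were lower and 4 higher at 8 h than at 2 h in KO cells, and 11 and 3 in WT cells (medians -0.19 and -0.26). Top2a, the topoisomerase that unlinks daughter strands, was 0.49 higher in KO than in WT cells at 8 h, and Rnaseh2a, a subunit of the enzyme that removes RNA from DNA, was lower by -0.47. Of 8 tested S phase chromatin assembly genes, 6 were higher and 1 lower at 2 h in each genotype (median 0.42 in both). They were led by Slbp, which processes histone messages, at 1.12 in KO and 0.75 in WT cells. Of the 18 mitotic genes, 15 were higher in KO and 14 in WT cells at 2 h and 0 lower in either (medians 0.43 and 0.38). From 2 h to 8 h, 17 of them were lower in KO and 18 in WT cells. In KO against WT cells, 6, 10 and 9 of them were higher at 0, 2 and 8 h and 0 lower. Over all genes 6.81%, 10.8% and 14.5% were higher. At 8 h, 4 of 13 licensing, 4 of 17 fork, 5 of 13 deoxynucleotide and folate, and 6 of 18 ring synthesis genes were higher. In these lists 0, 2, 0 and 2 genes were lower. Chromatin assembly had 2 higher and 1 lower, and the E2F and RB family 1 and 5.

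Nucleotide synthesis genes outside the members moved both ways at 8 h. Of the 18 genes that build purine and pyrimidine rings, 12 were higher and 1 lower at 8 h against 0 h in KO cells, and 9 and 4 in WT cells (medians 0.28 and 0.21). Adsl, a purine synthesis enzyme, was higher by 0.54 and 0.42. Of 13 tested deoxynucleotide and folate genes, 4 were higher and 5 lower in KO cells, and 4 and 7 in WT cells (medians -0.05 and -0.26). Mthfd2 and Shmt2, mitochondrial enzymes of one-carbon metabolism, were higher by 2.06 and 1.14 in KO cells and by 1.64 and 0.97 in WT cells. Dut, which clears dUTP, fell by 0.43 in WT cells. In KO cells Dut averaged 152 CPM at 8 h against 195 CPM at 0 h. Umps, which completes the making of uridylate, was lower in KO cells by -0.90 at 0 h, -0.90 at 2 h and -0.39 at 8 h.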

How the data were processed

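Nascent RNA was counted in 18 libraries. The deposited values are raw whole-number counts per gene symbol, which the authors made with STAR, featureCounts and the mm10 genome, per the submitters' processing notes, which also name DESeq. Versions, annotation, strand and intron settings are not stated in the sources used here. Newly made RNA was captured with a Click-iT kit, per the labels' protocols. They name no spike-in, so every change is relative to the rest of its library.

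Counts were fitted in edgeR 4.0.16 (R 4.3.3) with filterByExpr, TMM, 6 group means over all 18 libraries, quasi-likelihood tests and Benjamini-Hochberg adjustment over 14128 genes (threshold 0.05). Log2 fold changes are given ± SE. Members named in a comparison came mainly from the 3 called with the highest and the 3 with the lowest log2 fold change. Not all of these are given for every comparison. Up to 2 and 2 of each further list were named, and others for their role. The members and lists were chosen with earlier results of these data known. DESeq2 1.42.0, other scalings, no filter, the compared groups alone, a clone term and fits without single libraries or without the 3 of high share were alternatives, and library size without the abundant genes was one chosen after seeing the data. The 13 abundant genes have a mean above 1000 CPM, a correlation with Cdk8 above 0.9 within groups and a log2 SD above 0.3.

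Replicate pairs differed by 1.48 to 95.2 times sampling noise (chi-square per degree of freedom), and none was counted once. Nothing in the labels says how the clones were derived, so p-values measure the spread between libraries labelled as clones. Floors allow for counting error alone. Positions are from GENCODE M21 on GRCm38, the assembly that mm10 denotes, and promoters from RefSeq on GRCm38.p6.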

Additional observations from a re-analysis of the deposited data

Results flagged for a closer look

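The 8 h response differed between KO and WT cells, by the interaction test in edgeR, for 4 members. The response of Mcm6, Mcm4 and Mcm5 was higher in KO cells by 0.27, 0.26 and 0.22 (log2; adjusted p = 0.0196, 0.0368 and 0.0299). That of Rfc5 was lower, at -0.25 (adjusted p = 0.0142). For each of the 3 ring genes the KO value was highest at 8 h in clone C, the library in which the 13 abundant genes held most counts (43.9%). Without the 3 libraries of high share the differences were 0.19, 0.11, 0.20 and -0.21 for Mcm6, Mcm4, Mcm5 and Rfc5, and none passed the threshold. That fit has 1 KO library at 8 h, assumed to vary like the other groups, and Mcm5 and Rfc5 kept values close to those with all libraries. Without KO clone C at 8 h alone, the 3 ring genes lost their calls.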

How the results depend on the processing

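Of 332 recomputed counts of members, 269 lay within 1.5 times the reported count, and of 752 recomputed single-gene values 667 kept direction and call, 80 lost the call and 5 reversed. Library size alone gave 0 higher and 0 lower for KO against WT at 0 h and at 2 h, and 0 higher and 4 lower at 8 h. It gave 0 higher and 13 lower at 2 h against 0 h in KO cells, 4 higher in WT cells, 0 higher and 31 lower at 8 h against 0 h in KO cells, 1 higher in WT cells, and 0 (KO) and 2 (WT) higher at 8 h against 2 h. For the 8 h interaction it gave 0 higher and 3 lower. It reversed Mcm10 (-0.17) and Orc2 (-0.19) at 8 h in KO cells, and Mcm6 (-0.04), Mcm4 (-0.04) and Mcm5 (-0.08) in the 8 h interaction. Library size without the abundant genes gave 0 lower for KO against WT at 0 h, 8 higher and 16 lower (KO) and 7 and 16 (WT) at 2 h against 0 h, 1 higher at 8 h against 0 h and 8 higher at 8 h against 2 h in KO cells, and 2 lower in the 8 h interaction. Without the 3 libraries of high share there were 5 higher for KO against WT at 8 h, 0 higher at 8 h against 2 h in KO cells and 2 higher in the 2 h interaction. The 2 h interaction gave 1 higher with RLE size factors and 2 with the compared groups alone. DESeq2 gave 1 lower for KO against WT at 2 h, and no low-count filter 1 higher and 3 lower in the 8 h interaction. The replicate block gave 12 higher and 2 lower for KO against WT at 8 h, 15 higher at 2 h in WT cells and 4 higher in the 8 h interaction, and moved no count by over 1.5 times. Deviations from group means correlated by 0.0164 on average over 45 pairs of libraries with the same clone letter (-0.101 to 0.0826), and 15 of the 18 libraries were closest to their own letter, a hint from the data and not the design. Leaving out 1 library at a time gave 2 to 4 higher and 0 to 1 lower for KO against WT at 0 h, 1 to 2 higher and 1 to 2 lower at 2 h, 2 to 5 higher at 8 h against 0 h and 3 to 5 higher at 8 h against 2 h in KO cells, 0 to 1 higher in the 2 h interaction, and 0 to 4 higher and 0 to 3 lower in the 8 h interaction. Where a setting moved these values the cause was not tested. SEs in comparisons of 2 groups reached 0.15 for Pold2, the tested member with the fewest counts, which also ranged from 16.9 to 31 CPM in KO cells at 8 h. The parts of depth and of spread between libraries were not tested.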
